A study of Bos taurus with 12 samples.

Results

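The extracellular matrix genes described here are VCAN, DCN and LUM, which encode proteoglycan core proteins, SPARC and THBS4, which encode matricellular proteins, and UGDH, which encodes the enzyme that makes UDP-glucuronate. They were taken by gene symbol: every probe set whose only symbol in the array annotation was one of these 6 names. This gave 8 probe sets of the 24016 on the array other than controls, and 6 of the 9155 genes named there. VCAN had 3 probe sets and each other gene had 1. The 6 genes were chosen by their differences between weeks on the same 12 arrays, so their own values and differences between weeks are a description. Counts of calls from the fit across all probe sets are printed beside the share of all probe sets, and nothing is read from them.

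The arrays came from rumen papillae of the ventral sac, the projections of the forestomach wall that absorb the products of fermentation. Each of 4 Holstein dairy cows was sampled 3 times. The week 0 sample was taken on a high forage diet, which served as the control, and the week 1 and week 3 samples were taken during a grain challenge. Each week therefore held 4 arrays, and diet and calendar time moved together, so they cannot be told apart. No cow kept on forage throughout was analysed here. The labels give no age, lactation stage or amount of grain.

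The connective tissue core of a papilla lies under a stratified epithelium and carries its vessels. Versican, the product of VCAN, is a large proteoglycan that binds hyaluronan and carries chondroitin sulphate chains, and it is typical of loose or remodelling matrix. Decorin and lumican, from DCN and LUM, are small leucine-rich proteoglycans that bind collagen fibrils and take part in setting their spacing and width. SPARC is a secreted glycoprotein that binds collagen, and THBS4 is a thrombospondin of connective tissue and muscle. Matricellular proteins of this kind are secreted into the matrix and act on cells more than they build structure. UGDH oxidises UDP-glucose to UDP-glucuronate, a building block of hyaluronan and of the chondroitin and heparan sulphate chains that proteoglycans carry.

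Each log2 value is relative to the probe set's own median of all 12 arrays, which is 0. Such values hold differences between arrays and no absolute level, so genes cannot be ranked by abundance, and the labelled tissue could not be checked against the level of its markers. The 18 hybridization control probe sets averaged 0.48 to 0.72 on 3 arrays (week 0 and week 1 of cow 1 and week 0 of cow 2) and -0.32 to 0.05 on the other 9. Differences that those 3 arrays moved by over 1.5 times are given with and without them. Each model SE below comes from a fit of weekly means that does not pair arrays by cow, so it includes the spread between cows. In bulk tissue fewer cells of a type and less RNA per cell cannot be told apart.

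VCAN, UGDH and SPARC were higher than on forage at both grain weeks in all 4 cows. From week 1 to week 3 SPARC was higher in 3 of 4 cows, while VCAN and UGDH were lower in 3 of 4. DCN was lower at week 1 in all 4 cows, and LUM in 3 of 4, and both were higher again at week 3 than at week 1 in all 4 cows. THBS4 stood highest at week 3 in all 4 cows.

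**Figure D1:**
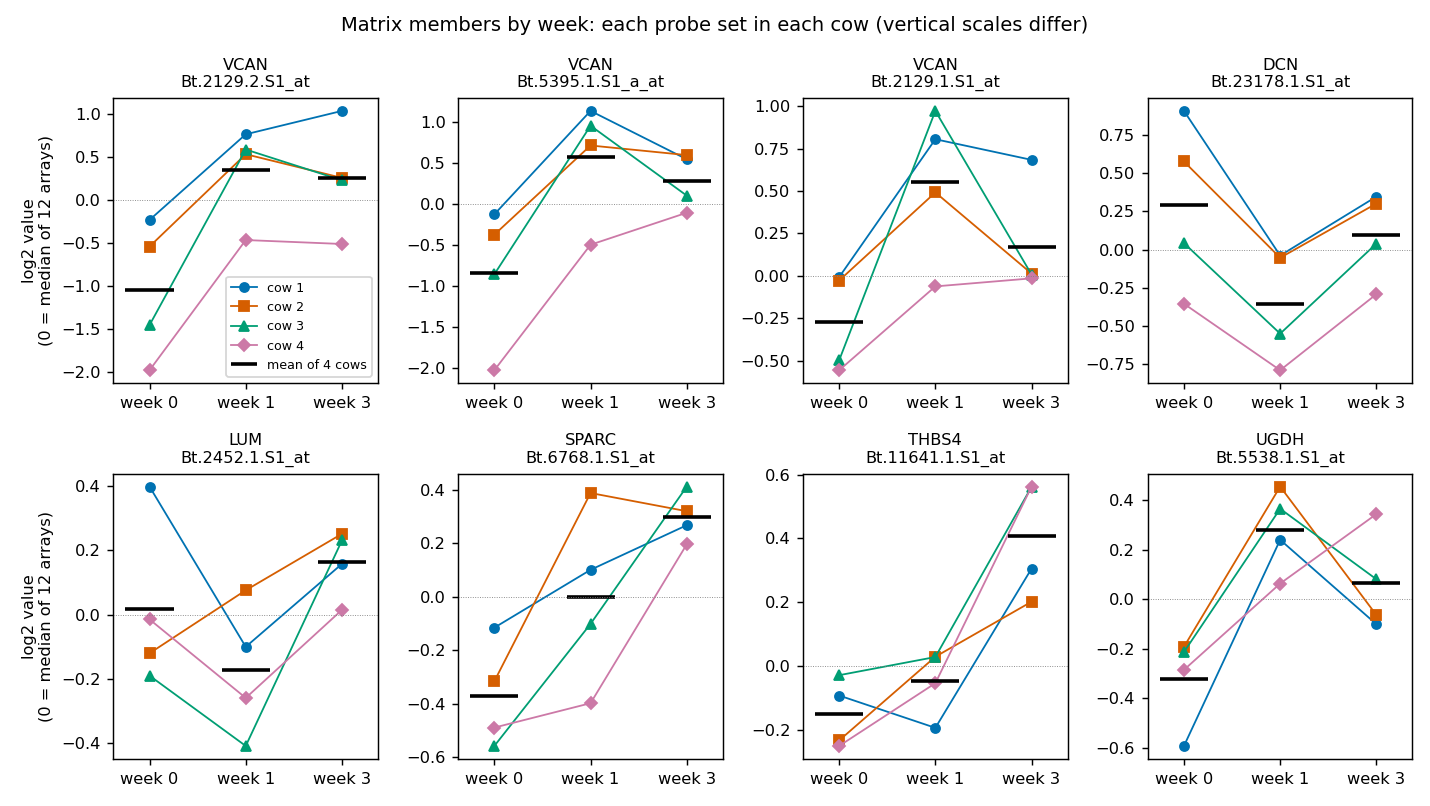
Each panel plots 1 probe set, with the log2 value (0 is the median of the 12 arrays) on the vertical axis, the week on the horizontal axis, 1 line per cow and a black bar at the mean of the 4 cows; vertical scales differ between panels. VCAN is lowest at week 0 in every cow, DCN is lowest at week 1 in every cow, and the 4 THBS4 values at week 3, from 0.20 to 0.56, lie above those of the other weeks.

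VCAN is described by its probe set of largest SD over the arrays. Its log2 values at week 0 were -0.23, -0.54, -1.45 and -1.97 in cows 1 to 4. At week 1 they were 0.76, 0.53, 0.59 and -0.46, and at week 3 they were 1.04, 0.26, 0.23 and -0.51. Every cow stood lowest on forage, and cow 4 was the lowest cow at each week, so that the weekly ranges overlapped. The weekly means were -1.05 ± 0.81, 0.36 ± 0.55 and 0.25 ± 0.63 (SD, n = 4). VCAN was 2.65-fold higher at week 1 than at week 0, a log2 difference of 1.40 ± 0.44 (model SE, n = 4 cows), with 0.99 to 2.04 within single cows. At week 3 it was 2.47-fold higher than at week 0, a difference of 1.30 ± 0.44, with 0.80 to 1.68 within cows. Week 3 and week 1 were 0.10 apart, less than the SE of 0.44, and single cows ran from -0.36 to 0.27.

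The other VCAN probe sets gave the same signs in all 3 comparisons, with correlations between probe sets of 0.88 to 0.95 over the 12 arrays. With the probe set of next largest SD the difference was 1.42 ± 0.45 at week 1 and 1.13 ± 0.45 at week 3, both against week 0. Its values ran from -2.03 to -0.12 at week 0, from -0.49 to 1.14 at week 1 and from -0.10 to 0.60 at week 3, and week 3 did not overlap with week 0. With the probe set of smallest SD the differences from week 0 were smaller, 0.82 ± 0.24 at week 1 and 0.44 ± 0.24 at week 3. Week 3 against week 1 was at -0.29 ± 0.45 for the probe set of next largest SD and -0.38 ± 0.24 for that of smallest SD. Each was lower in 3 of 4 cows. The mean of all VCAN probe sets gave -0.26 in that comparison. The size of the VCAN difference thus depended on the probe set by more than 1.5 times, and its direction did not. When the 3 arrays with high hybridization controls were left out, the first probe set gave 1.93 for week 1 and 1.97 for week 3 against week 0. Blocking on cow in addition gave 1.79 and 1.56.

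UGDH had log2 values of -0.59, -0.19, -0.21 and -0.29 in cows 1 to 4 at week 0. They were 0.24, 0.46, 0.37 and 0.06 at week 1 and -0.10, -0.06, 0.08 and 0.34 at week 3. All 4 values on forage lay below all 8 values on grain. The difference from week 0 was 0.60 ± 0.12 (model SE, n = 4 cows) at week 1, 1.52-fold, and 0.39 ± 0.12 at week 3, 1.31-fold. From week 1 to week 3 the value was lower in cows 1, 2 and 3 and higher in cow 4, and the mean difference of -0.22 ± 0.12 became -0.38 without cow 4 and -0.12 without cow 2. With those 3 arrays left out the differences from week 0 were 0.54 and 0.31.

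DCN took the opposite course. Its log2 values were 0.91, 0.58, 0.04 and -0.35 in cows 1 to 4 at week 0, then -0.04, -0.05, -0.55 and -0.79 at week 1. At week 3 they were 0.35, 0.30, 0.04 and -0.29. The cows kept the same order at every week, from cow 1 as the highest to cow 4 as the lowest. The spread between cows made the weekly ranges overlap, while within each cow week 1 was the lowest. The difference of week 1 from week 0 was -0.65 ± 0.28 (model SE, n = 4 cows), 1.57-fold lower, with -0.95 to -0.43 within cows. With the cow as a block the SE of this difference was 0.10. Week 3 was 0.46 ± 0.28 above week 1, with 0.35 to 0.59 within cows. Week 3 differed from week 0 by -0.19 ± 0.28, with cows from -0.56 to 0.06.

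The size of the DCN difference at week 1 depended on whether the arrays of high hybridization controls were kept. They include the 2 highest DCN values, those of cows 1 and 2 at week 0. DCN averaged 0.40 and 0.27 over the weeks in these cows, and -0.16 and -0.48 in cows 3 and 4. Leaving the arrays out thus also changes which cows make up week 0. Without those 3 arrays the difference at week 1 was -0.31 and, blocking on cow in addition, -0.48. The difference of week 3 from week 0 turned to 0.25 without them, and was near 0 when cow was also a block. Cows 3 and 4 lost no array, and in them DCN was lower at week 1 than at week 0 by 0.59 and 0.43.

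LUM, the neighbour of DCN among protein-coding genes in the ARS-UCD2.0 gene table, varied less. Its log2 values were 0.40, -0.12, -0.19 and -0.01 at week 0, then -0.10, 0.08, -0.41 and -0.26 at week 1 and 0.16, 0.25, 0.23 and 0.01 at week 3, in cows 1 to 4. Cow 2 was higher at week 1 than at week 0, and the other 3 cows were lower. The mean difference was -0.19 ± 0.14 (model SE, n = 4 cows), or -0.09 without cow 1 and -0.32 without cow 2. Week 3 was above week 1 in all 4 cows, by 0.18 to 0.64, with a mean difference of 0.34 ± 0.14. Against week 0 it was at 0.15 ± 0.14, and 0.05 to 0.27 with single cows left out. With the 3 arrays of high control signal left out the differences from week 0 were -0.10 at week 1 and 0.27 at week 3, or -0.18 and 0.18 when cow was also a block. KERA and EPYC, 2 further small leucine-rich proteoglycan genes beyond LUM in that table, differed by 0.04 or less in each comparison and belonged to the 40% of probe sets with the lowest SD.

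The opposite courses of VCAN and DCN showed most clearly within arrays. The VCAN value minus the DCN value on the same array was -1.14, -1.11, -1.49 and -1.62 in cows 1 to 4 at week 0. It was 0.80, 0.59, 1.14 and 0.33 at week 1 and 0.69, -0.04, 0.19 and -0.22 at week 3. All 4 forage values lay below all 8 grain values, although the weekly values of each of these 2 probe sets alone overlapped. Both genes had been chosen for how they moved with week, so nothing is read from this separation. The share of other gene pairs that separate in this way was not measured. Within cows the week 1 value exceeded that of week 0 by 1.70 to 2.63, with a mean of 2.05 ± 0.40 (SD, n = 4 cows). At week 3 it was lower than at week 1 in all 4 cows, with a mean of -0.56 ± 0.34. Such a value compares unequal shifts of 2 probe sets and says nothing of which transcript was more abundant.

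**Figure D2:**
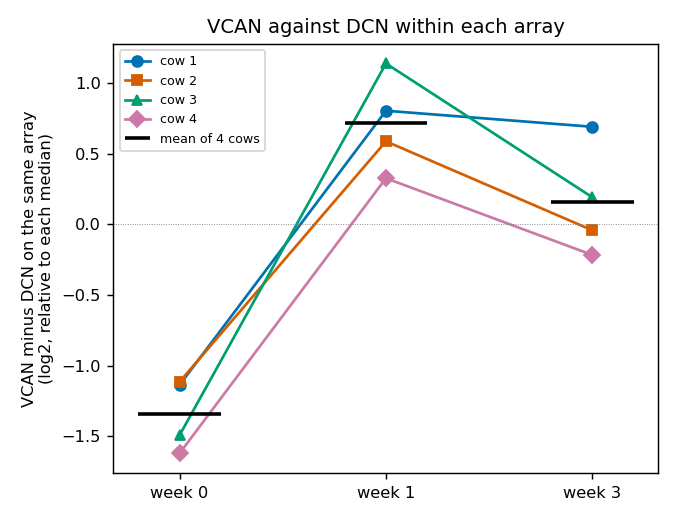
The VCAN value minus the DCN value of the same array (log2, each relative to its own median over 12 arrays) is plotted by week, with 1 line per cow and black bars at the means of -1.34, 0.71 and 0.16. Every line goes up from week 0 to week 1 and down from week 1 to week 3, where cow 1 is at 0.69 and cow 4 at -0.22.

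SPARC was higher at week 1 than at week 0 and higher still at week 3 in 3 of the 4 cows. Its log2 values were -0.12, -0.32, -0.56 and -0.49 at week 0, then 0.10, 0.39, -0.10 and -0.40 at week 1 and 0.27, 0.32, 0.41 and 0.20 at week 3, in cows 1 to 4. The week 3 values lay in a narrow band above all week 0 values, while week 1 overlapped with both. The difference from week 0 was 0.37 ± 0.15 (model SE, n = 4 cows) at week 1, with 0.09 to 0.71 within cows, and 0.67 ± 0.15 at week 3, 1.59-fold, with 0.38 to 0.97 within cows. Cow 2 had its highest value at week 1. The difference of week 3 from week 1 was 0.30 ± 0.15, with 0.20 to 0.43 when single cows were left out.

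THBS4 differed more at week 3 than at week 1. Its log2 values were -0.09, -0.23, -0.03 and -0.25 at week 0 and -0.19, 0.03, 0.03 and -0.05 at week 1 in cows 1 to 4. At week 3 they were 0.31, 0.20, 0.56 and 0.56, above all 8 earlier values. The difference of week 3 was 0.56 ± 0.09 (model SE, n = 4 cows) from week 0 and 0.46 ± 0.09 from week 1, folds of 1.47 and 1.37. Week 1 differed from week 0 by 0.10 ± 0.09, with cow 1 lower and the other 3 cows higher, by 0.05 without cow 2, by 0.17 without cow 1 and by 0.19 without the 3 arrays of high control signal and with cow as a block. With the 3 arrays of high control signal left out the week 3 differences were 0.55 and 0.41.

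**Figure D3:**
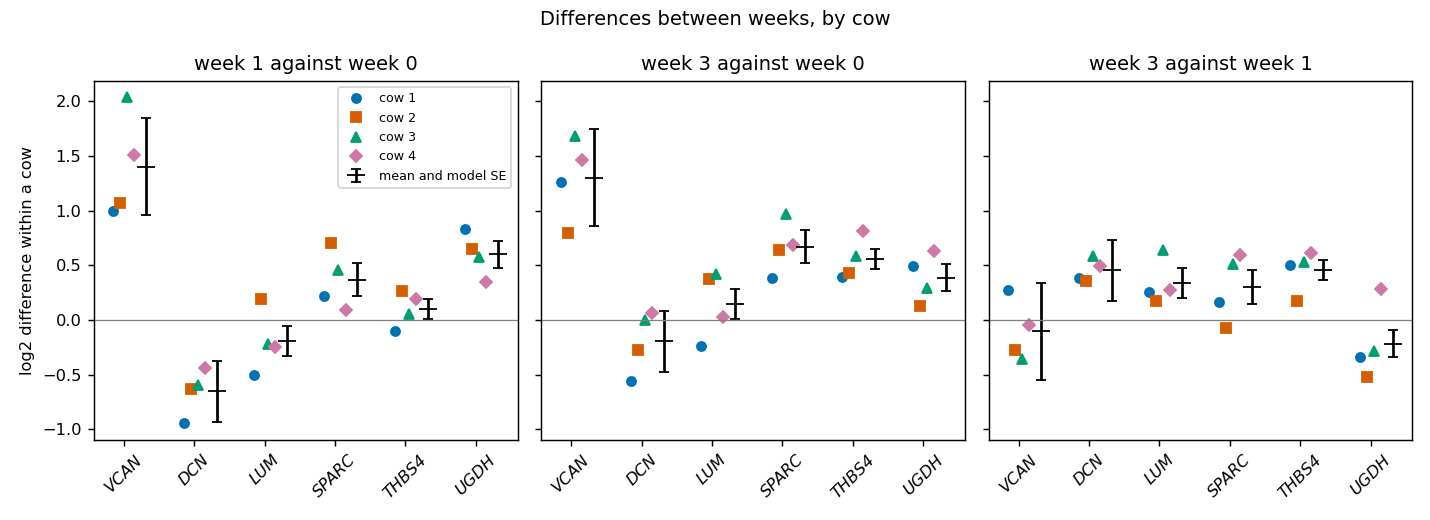
Log2 differences between weeks within each cow are plotted for the 6 genes in 3 panels, 1 per comparison, with a marker per cow and a black bar with whiskers at the mean and its model SE. At week 1 against week 0 VCAN, UGDH and SPARC lie above 0 and DCN below 0 in every cow. At week 3 against week 1 DCN, LUM and THBS4 lie above 0 in every cow.

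For DCN more of the variance over the 12 arrays lay between cows than between weeks, and for the other 5 genes less. Between cows lay 58.9% of the variance of DCN and 40.3% of that of VCAN, against 7.89% for THBS4 and 9.86% for UGDH. The weeks took up 80.7% for THBS4, 70.4% for UGDH, 65.6% for SPARC, 54.7% for VCAN, 38.0% for LUM and 35.6% for DCN. For comparison, after dropping the 40% of probe sets with lowest SD, the medians of the remaining 14409 were 31.3% between cows and 15.2% between weeks. These shares describe genes that had been chosen for how they moved with week. VCAN averaged 0.52 over the weeks in cow 1 and -0.98 in cow 4, and DCN averaged 0.40 and -0.48, so these genes were ordered alike across cows and oppositely across weeks.

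No member probe set was called in any comparison (limma, Benjamini-Hochberg adjusted p under 0.05 over all 24016 probe sets), where 0% of all probe sets were called. With the cow as a block none of the 8 was called either, against 0.00833%, 0% and 0% of all probe sets for week 1 against week 0, week 3 against week 0 and week 3 against week 1. At an unadjusted p under 0.05 there were 6, 5 and 2 of the 8, beside 5.15%, 3.88% and 4.88% of all. With the cow as a block there were 6, 6 and 4, beside 7.61%, 6.12% and 7.58% of all.

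Of the 6 genes, VCAN, SPARC and UGDH were higher in all 4 cows at week 1 against week 0, where 6.91% of all probe sets were, or 8.95% without the 40% of lowest SD. DCN was the 1 gene lower in all 4 cows, beside 3.39% of all probe sets. For week 3 against week 0, 4 genes were higher in all 4 cows (VCAN, SPARC, THBS4 and UGDH), where the share of all probe sets was 36.3%, or 24.9% without those of lowest SD, and none was lower (4.63% of all). From week 1 to week 3, DCN, LUM and THBS4 were higher in all 4 cows, beside 5.12% of all probe sets, or 8.11% without those of lowest SD, and none was lower (4.59% of all). Values did not overlap for UGDH at week 1 against week 0 (2.09% of all probe sets stood wholly higher), for SPARC, THBS4 and UGDH at week 3 against week 0 (2.72%) and for THBS4 at week 3 against week 1 (1.07%). The 3 comparisons share arrays, so they are not separate evidence.

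Likeness between genes was measured as Pearson's r over the 12 arrays after each cow's mean had been subtracted, using 1 probe set per gene. It is a description: the arrays share cows, and the genes named are the 3 highest of 9154. The members were chosen for their differences between weeks, which remain after the subtraction. An r between members thus in part restates that choice and is not separate evidence that they go together. SPARC was most like the fibrillar collagens COL3A1 (r = 0.98), COL1A1 (0.97) and COL1A2 (0.97). Those collagens were at 0.54 ± 0.13, 0.67 ± 0.19 and 0.72 ± 0.20 (model SE, n = 4 cows) at week 1 and at 0.83 ± 0.13, 0.91 ± 0.19 and 1.17 ± 0.20 at week 3, both against week 0. THBS4 reached 0.87 with SPARC and 0.78 to 0.85 with the 3 collagens, and was most like THRA (0.96), a thyroid hormone receptor, BCAS3 (0.94) and SPON1 (0.94).

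VCAN was most like IGFBP5 (r = 0.94), a binding protein of insulin-like growth factors, MAGEH1 (0.93) and PCTP (0.93), a lipid transfer protein. VCAN also reached 0.83 with COL1A1, 0.82 with COL3A1, 0.76 with COL1A2 and 0.75 with SPARC. UGDH was most like WDR11 (0.96), GDE1 (0.95) and FABP4 (0.93), a fatty acid binding protein, and reached 0.81 with VCAN. WDR11 itself differed from week 0 by only 0.06 ± 0.03 at week 1 and 0.04 ± 0.03 at week 3 (model SE). DCN was most like PRELP (0.94), another small leucine-rich proteoglycan, followed by ADPRS (0.92) and TJAP1 (0.91). It stood at -0.65 with VCAN and -0.78 with UGDH. LUM was most like CREG1 (0.92), DNAJC14 (0.90) and GNAI2 (0.90), and reached 0.63 with DCN. The subtraction matters. Without it the r of DCN with VCAN was 0.15, of the other sign, and with UGDH -0.61, and that of UGDH with VCAN was 0.47. Also without it the r of DCN was -0.20 with ADPRS and 0.19 with TJAP1, while that with PRELP was 0.83. Likewise without subtraction r was 0.31 for THBS4 with SPON1 and 0.48 for LUM with DNAJC14. It was 0.58 for UGDH with WDR11 and 0.62 for VCAN with PCTP. The other most alike genes of VCAN, LUM, SPARC, THBS4 and UGDH kept 0.80 (LUM with GNAI2) to 0.96 (SPARC with COL1A1).

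**Figure D4:**
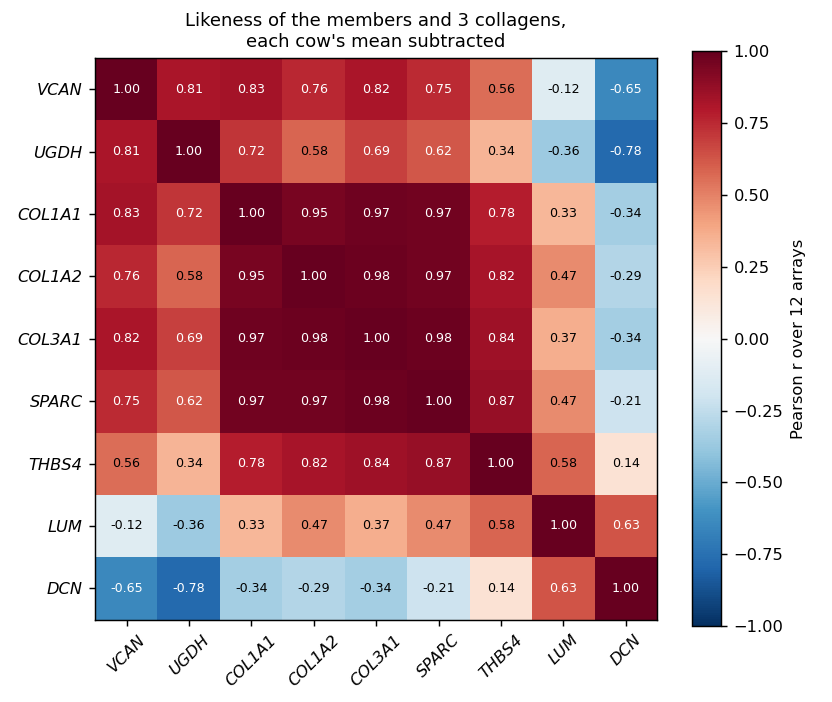
The grid gives Pearson's r over 12 arrays, with each cow's mean subtracted, between the 6 genes and 3 collagens on both axes, coloured from -1 (blue) to 1 (red). SPARC and the 3 collagens form a block of 0.95 and above. VCAN stands at 0.76 to 0.83 with the 3 collagens and at 0.81 with UGDH, and DCN is negative with all but THBS4 and LUM. The 6 genes were chosen for how they moved with week, so r between them in part restates that choice.

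The other genes of these pathways were taken from 6 lists made by function, without the 6 genes above. Of 196 listed genes, members included, 134 others were measured. None was called in any comparison (limma, lowest adjusted p = 0.686, 0.248 and 0.791 for week 1 against week 0, week 3 against week 0 and week 3 against week 1). At an unadjusted p under 0.05 there were 19, 19 and 9 of the 134, beside 605, 460 and 626 of all 9155 named genes (6.61%, 5.02% and 6.84%). With the cow as a block none was called either (limma, lowest adjusted p = 0.296, 0.158 and 0.159), and 27, 25 and 18 of the 134 had an unadjusted p under 0.05, beside 10.2%, 8.02% and 10.6% of all named genes. Over all 9155 named genes 63.3% were higher at week 1 and 64.5% at week 3 than at week 0, and 40.8% were higher at week 3 than at week 1. The medians were 0.02, 0.02 and -0.01, and the counts of each list are to be read beside these shares.

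Among the other proteoglycan core proteins the median difference of week 1 from week 0 was 0.04, and 18 of 22 were above 0. FMOD, the collagen-binding fibromodulin, was at 0.73 ± 0.23 (model SE, n = 4 cows) and higher in all 4 cows. PRELP was at -0.48 ± 0.19 and SRGN, the serglycin of blood cell granules, at -0.30 ± 0.40, both lower in all 4 cows. Week 3 against week 0 also gave 18 of 22 higher and a median of 0.04. FMOD was at 0.80 ± 0.23, OGN, the osteoglycin, at 1.30 ± 0.46 and ASPN, the asporin, at 0.65 ± 0.37, each higher in all 4 cows. Small leucine-rich proteoglycans thus stood on both sides at week 1, FMOD above 0 and DCN and PRELP below. OGN at week 1 was at 1.09 ± 0.46 and ASPN at 0.14 ± 0.37. Neither had 1 sign in all 4 cows, with OGN from -0.41 to 2.45 and ASPN from -0.53 to 0.84. From week 1 to week 3 12 of 22 were higher, among them PRELP at 0.39 ± 0.19 and SRGN at 0.74 ± 0.40. With the cow as a block the SE was 0.14 for PRELP and 0.11 for SRGN, and neither was called.

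The other matricellular proteins had a median of 0.03 at week 1, and 16 of 21 were higher. CCN2, the connective tissue growth factor, was at 1.55 ± 0.90, with single cows from 0.37 to 4.14. POSTN, the periostin, was at 0.62 ± 0.24, and THBS1, another thrombospondin, at -0.55 ± 0.27 and lower in all 4 cows. Of the 21, 19 were higher at week 3 than on forage (median 0.03), and POSTN was at 0.69 ± 0.24, MFAP2, a microfibril protein, at 0.38 ± 0.18 and THBS3 at 0.02 ± 0.03. Between weeks 1 and 3 8 of 21 were higher, among them THBS1 at 0.57 ± 0.27.

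The other genes of sugar chain synthesis had a median of 0.03 at week 1, where 18 of 26 were higher. CHST14, a dermatan sulphotransferase, was at 0.16 ± 0.04 and CHPF, a chondroitin polymerizing factor, at -0.06 ± 0.05. On the same list 19 of 26 were higher at week 3 than on forage, with CHSY1, a chondroitin synthase, at 0.31 ± 0.23, HS6ST1, a heparan sulphotransferase, at 0.21 ± 0.12 and CHPF at 0.07 ± 0.05. B3GAT3, which adds the last sugar of the linker to the core protein, was at -0.19 ± 0.09. Between weeks 1 and 3 10 of 26 were higher. SLC35D2 was at 0.34 ± 0.25, CHPF at 0.13 ± 0.05 and EXT2, a heparan sulphate polymerase, at 0.11 ± 0.08. DSEL was at -0.14 ± 0.17, CHST14 at -0.07 ± 0.04 and B3GAT3 at -0.07 ± 0.09.

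Genes of matrix turnover had a median of 0.04 at week 1, and 20 of 28 were higher. ADAMTS1, a protease that cleaves versican, was at 1.37 ± 0.50, with single cows from 0.28 to 3.46. HYAL1, a hyaluronidase, was at 0.61 ± 0.14 and MMP2, a gelatinase, at 0.28 ± 0.14. SULF2, which removes sulphate from heparan sulphate, was at -1.68 ± 0.47 and PLAU, the urokinase, at -0.62 ± 0.30. Their median at week 3 against week 0 was 0.06, and 22 of 28 were higher. TIMP2, an inhibitor of metalloproteinases, was at 1.33 ± 0.51, ADAM9 at 0.66 ± 0.18 and MMP2 at 0.48 ± 0.14, while MMP13 was at -0.51 ± 0.55 and CD44, a hyaluronan receptor, at -0.18 ± 0.17. Between weeks 1 and 3 15 of 28 were higher, with SULF2 at 0.93 ± 0.47, TIMP1 at 0.36 ± 0.12 and CTSB at 0.24 ± 0.12.

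The collagen list lay farther from 0 than the other lists at the grain weeks. At week 1 16 of 18 were higher, with a median of 0.34, and at week 3 17 of 18, with a median of 0.41, both against week 0. The week 1 median was 0.21 without cow 2 and 0.21 with the mean of all probe sets of a gene. P4HA2, which hydroxylates collagen prolines, was at 0.46 ± 0.13 at week 1 and at -0.35 ± 0.13 at week 3 against week 1. In that last comparison 10 of 18 were higher, with COL12A1 at 0.41 ± 0.13 and COL15A1 at 0.23 ± 0.15, beside COL1A1 at 0.24 ± 0.19, COL1A2 at 0.45 ± 0.20 and COL3A1 at 0.29 ± 0.13. In the list of TGF-beta signalling, a pathway that induces many matrix genes, 14 of 19 were higher at week 1, 12 of 19 at week 3 and 7 of 19 at week 3 against week 1. Of the inhibitors of DNA binding, ID2 was at -0.59 ± 0.21 at week 1 and -0.29 ± 0.21 at week 3, and ID1 was at -0.68 ± 0.20 at week 3. LTBP2, a latent TGF-beta binding protein, was at -0.94 ± 0.49 and -0.39 ± 0.49 at these weeks. Against week 1, ID1 at week 3 was at -0.51 ± 0.20 and BMP2, a ligand of the family, at -0.31 ± 0.16. TGFB1 was at 0.10 ± 0.09 at week 1, and SMAD4, TGFB3 and BMP7 were at 0.15 ± 0.06, 0.03 ± 0.03 and 0.02 ± 0.03 at week 3.

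**Figure D5:**
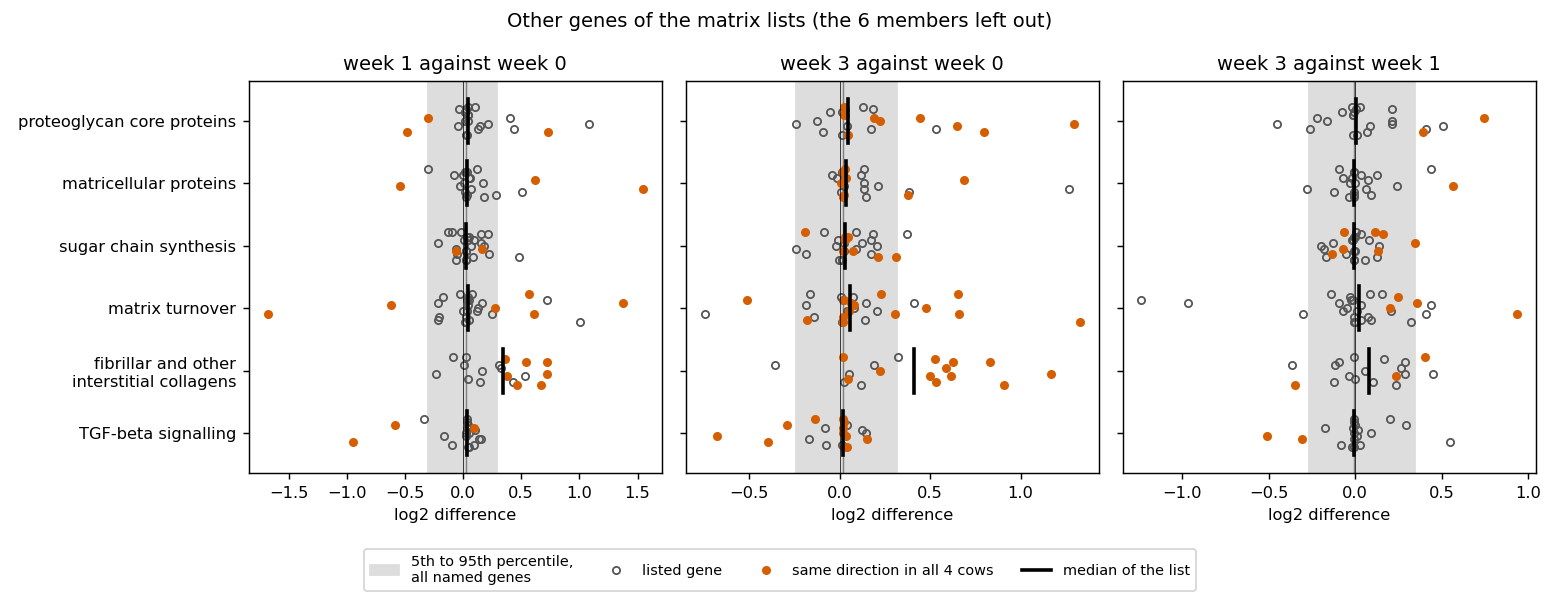
Each point is 1 listed gene at its log2 difference between weeks (horizontal axis), in 6 lists and 3 comparisons; filled points had the same sign in all 4 cows, black bars mark list medians and the grey band spans the 5th to 95th percentile of all 9155 named genes. The collagen medians of 0.34 and 0.41 against week 0 stand to the right, while the other medians lie between 0.02 and 0.06 in those comparisons.

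At week 1 the medians of the epithelial and macrophage marker lists lay below that of all genes. Those of the other cell types lay near it when all measured markers were counted, those of low SD included. All 6 measured basal epithelium markers were lower at week 1 (median -0.32) and 5 of 6 at week 3 (median -0.28), both against week 0. Their mean ran from 0.09 to 0.41 over the arrays of week 0, from -0.34 to 0.28 at week 1 and from -0.31 to 0.05 at week 3. Of the suprabasal markers 6 of 8 were lower at week 1 (median -0.38) and 5 of 8 at week 3 (median -0.03), with means of 0.09 to 0.47, -0.50 to 0.02 and -0.29 to -0.07 at weeks 0, 1 and 3. Of the fibroblast markers 6 of 11 were higher at week 1 (median 0.02) and 9 of 11 at week 3 (median 0.04), with means of -0.30 to 0.22, -0.12 to 0.09 and -0.07 to 0.20.

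Vessel and smooth muscle markers had medians of 0.03 and 0.04 at week 1 and of 0.02 and 0.02 at week 3. Their means ran from -0.14 to 0.11 for vessels and from -0.16 to 0.33 for smooth muscle over the 12 arrays. Of the macrophage markers 6 of 7 were lower at week 1 (median -0.55) and 5 of 7 were higher at week 3 (median 0.27), both against week 0. Their means ran from -1.49 to 1.55 over the week 0 arrays. From week 1 to week 3 7 of 7 were higher (median 0.90), 4 of them in all 4 cows. In that comparison 6 of 8 suprabasal (median 0.08), 2 of 6 basal (-0.03) and 5 of 11 fibroblast markers (-0.01) were higher. So were 2 of 10 vessel (-0.01), 3 of 9 smooth muscle (-0.05), 2 of 8 lymphocyte (-0.01) and 2 of 2 mast cell markers (0.09). Lymphocyte markers had medians of 0.04 and 0.03 and the 2 measured mast cell markers of 0.01 and 0.11 at weeks 1 and 3 against week 0. Without the 40% of lowest SD the 4 lymphocyte markers left had medians of 0.50 and 0.29, with 2 and 3 of them higher. The 8 fibroblast markers left then had medians of 0.02 and 0.13. Those of the 5 vessel markers left were -0.05 and -0.04, and those of the 7 smooth muscle markers 0.04 and 0.0017. The medians over all named genes were then 0.01 and 0.02. Since the values hold no level, no marker could be said to be absent. The part of these shifts in the members' differences was not tested.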

How the data were processed

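Biotin-labelled cRNA made from 10 ug of total RNA per sample was hybridised to Affymetrix arrays, per the labels' protocols. The deposited log2 values were made with GCRMA per the submitters' processing notes, of a version that the sources do not state. The base of the logarithm was taken as 2, which GCRMA gives. From the values, each probe set had a median of 0 over the 12 arrays.

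All 24016 probe sets other than the 112 controls were fitted with limma 3.58.1 in R 4.3.3 (a mean per week, all 12 arrays, lmFit and eBayes, two-sided), with Benjamini-Hochberg adjusted p-values over the whole set. The steps were tested on simulated data that held no spread between cows, so that test does not cover the pairing of these arrays. The 13292 probe sets naming 1 gene gave 9155 genes, with current symbols from the ARS-UCD2.0 gene table for 13263 of them, and the probe set of largest SD stood for a gene. No genome build goes with the values, so no coordinates are given. The depth of an array has no counterpart to read counts, and 4 arrays per week limit the precision.

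The same cows were sampled at each week, so replicate numbers pair the arrays. Deviations from weekly means had correlations of 0.321 to 0.692 for arrays of the same cow and -0.443 to 0.0627 for arrays of different cows. The cow as a block was an alternative, beside quantile normalization, centring of arrays, leaving out cows, the 3 arrays of high hybridization controls or probe sets of low SD, and the mean of a gene's probe sets. The members, lists and tests were chosen with earlier results of these data known. Genes named from a list were up to 3 per direction and comparison, of smallest unadjusted p among those of 1 sign in all 4 cows, and COL1A1, COL1A2 and COL3A1 throughout. KERA and EPYC were named for their position, and OGN and ASPN at week 1 as further small leucine-rich proteoglycans.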

Additional observations from a re-analysis of the deposited data

Results flagged for a closer look

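One member value stood far from the others of its week. On the VCAN probe set of smallest SD, cow 1 was at 0.68 at week 3, while the other 3 cows lay between -0.01 and 0.01, and the gap took up a larger share of the range than the critical value of Dixon's test for 4 samples. Chance gives such a gap in about 1 of 20 groups, and 24 groups of 4 values were examined. The other 2 VCAN probe sets put cow 1 at 1.04 and 0.55 at week 3.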

How the results depend on the processing

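Of 165 values of the member differences under the alternatives 2 changed sign. Other values moved without a change of sign. With the 3 arrays of high hybridization controls left out, VCAN at week 3 against week 0 was at 1.97, above its range of 0.80 to 1.68 within cows. DCN at week 1 against week 0 was then at -0.31, outside its range of -0.95 to -0.43 within cows. Without the 3 arrays of high hybridization controls DCN at week 3 against week 0 was at 0.25, against -0.19 with all arrays, and VCAN at week 3 against week 1 was at 0.03, against -0.10. That alternative removes 2 of the 4 forage arrays and so changes which cows make up week 0. With the replicate block (cow) the differences were the same by construction. The SE was then 0.17 in place of 0.44 for VCAN and 0.10 in place of 0.28 for DCN. For LUM it was 0.12 in place of 0.14, for SPARC 0.12 in place of 0.15 and for THBS4 0.08 in place of 0.09. For UGDH it was 0.12 in both fits. No member or listed gene was called in any of the 10 alternative fits.

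The number of called probe sets, 0 in each comparison, was 2 with the replicate block, 5 without the 3 arrays, 2 without the 40% of lowest SD, 0 to 6 with single cows left out (6 without cow 1) and 1 with both the block and the 3 arrays left out at week 1 against week 0. At week 3 against week 0 it was 2 after quantile normalization and 6 without the 3 arrays, and at week 3 against week 1 it was 12 without the 3 arrays.

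List medians near 0 moved with the low-variance probe sets. Without the 40% of lowest SD, an alternative added for the lists after seeing the data, the medians at week 1 were 0.069 for proteoglycan core proteins, 0.096 for matricellular proteins, 0.085 for sugar chain synthesis, 0.097 for matrix turnover and -0.023 for TGF-beta signalling, the last on the other side of 0. At week 3 against week 0 they were 0.18 for proteoglycan core proteins, 0.13 for matricellular proteins, 0.12 for sugar chain synthesis, 0.11 for matrix turnover and -0.11 for TGF-beta signalling, again on the other side. Leaving out single cows put matricellular proteins at week 1 between 0.0072 and 0.101, the highest without cow 1. For matricellular proteins at week 3 against week 0 the median was 0.10 after quantile normalization, 0.0187 after centring, 0.0472 without the 3 arrays, 0.0523 with the block in addition, and 0.0231 to 0.0324 with single cows left out. For sugar chain synthesis it was 0.0174 after quantile normalization, 0.0110 after centring and 0.0117 with the block and without the 3 arrays. For matrix turnover it was 0.0359 without the 3 arrays and 0.0196 with the block in addition. For TGF-beta signalling it was -0.0025 after quantile normalization, 0.0029 after centring and 0.0097 with the block and without the 3 arrays. For the collagens it was 0.22 with the mean of all probe sets of a gene. The cause of these moves was not tested.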

Other observations

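Probe sets of low SD shared 1 pattern over the arrays. The median of the 9607 probe sets in the lowest 40% by SD ran from -0.07 at week 1 of cow 1 to 0.06 at week 1 of cow 2. The 8 member probe sets correlated with it at -0.25 to 0.25 over the 12 arrays, while the probe set of lower SD for COL1A1 did so at 0.94 and the other COL1A1 probe set at 0.24.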
